A study of Mus musculus with 6 samples.

Results

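The genes described here encode the receptors of the interleukin-1 (IL-1) family and the adaptor proteins that carry their signal into the cell. The 10 genes were chosen by symbol: Il1r1, Il1rap, Il1rl1, Il1rn, Myd88, Irak1, Irak2, Irak4, Traf6 and Tollip. All 10 were found among the 16880 genes of the expression table. RNA was sequenced from ATDC5 cells, a mouse chondrogenic cell line according to the labels, in 6 libraries. All 6 came from cells given IL-1β at 10 ng/mL. For 3 libraries this was the only agent, and for the other 3 the cells also received NP-G2-044 at 10 μM, a small molecule inhibitor of the actin-bundling protein Fascin1. The methods give 24 h of treatment. The titles of the inhibitor-treated samples name NP-G2-044 and their treatment label names NP-G2-047, whereas the methods name primary mouse chondrocytes, so both the compound number and the cells are given differently by different sources. Cells without IL-1β were not analysed here. Every comparison therefore sets cells with the inhibitor against cells without it in the presence of IL-1β, and none of the values below measures the response to IL-1β itself.

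IL-1 binds IL1R1, which then recruits the accessory chain encoded by Il1rap. The paired intracellular TIR domains bind the adaptor MYD88, and MYD88 assembles the kinases IRAK4, IRAK1 and IRAK2. These engage the ubiquitin ligase TRAF6, which activates the TAK1 and IKK kinases and so the NF-κB and MAP kinase pathways. The accessory chain is shared with ST2, the IL-33 receptor encoded by Il1rl1. Il1rn encodes the antagonist that occupies IL1R1 without signalling, and TOLLIP binds IRAK1 and holds it back in resting cells. In cartilage this pathway is known for inducing matrix-degrading enzymes and inflammatory mediators.

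The receptor genes were lower and the antagonist and several downstream genes were higher with the inhibitor. Il1rap fell 4.285-fold and Il1rl1 fell 1.97-fold, while Irak4, Il1r1 and Myd88 fell by smaller amounts, 1.30-fold, 1.19-fold and 1.14-fold. In the other direction Tollip rose 2.21-fold, Il1rn 2.08-fold, Irak2 1.45-fold, Traf6 1.36-fold and Irak1 1.12-fold. By the quasi-likelihood test of edgeR, adjusted over 11983 genes by the Benjamini-Hochberg method, all 10 genes passed the threshold of 0.05, 5 of them higher and 5 lower. This count says little by itself, since 80.0% of all genes tested were called at that threshold, 40.2% higher and 39.8% lower. Past the further cutoff of a log2 fold change above 1 in size were Il1rap, Tollip and Il1rn, that is 3 of 10 genes, against 16.6% of all genes tested. Il1rn, the gene with the fewest reads, was not past both cutoffs with DESeq2, with limma on log2(TPM + 1) or log2(TPM + 0.1) (0.36 and 0.88), without IL-1β replicate 2 (0.87) or without inhibitor replicate 2 (0.91), and a filter of at least 10 CPM left it out. The 3 of 10 is therefore not read as a difference from all genes. The groups did not overlap in TPM, a level corrected for transcript length and sequencing depth, for 9 of the 10, against 79.4% of all genes tested. The median log2 fold change of the 10 genes was −0.01 and that of all genes tested was 0.0018. In bulk RNA, fewer cells that express a gene and less RNA per cell cannot be told apart.

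The upstream sequences of Il1rap and Tollip are shown because these genes had the largest fall and the largest rise. Those of Il1rl1 are shown as an example of a gene with 2 start sites in RefSeq, which the gene-level counts add together. Il1r1, Il1rn and Irak1 also have several start sites and are not shown. The Tollip window lies inside the span of the gene in GENCODE vM21, whose 5′ end on the minus strand is at 141918507. Each sequence shown is the 250 bases before an annotated start on GRCm38.p6, from RefSeq, read 5′ to 3′ on the strand of the gene. Capitals mark matches, on either strand, to any of 5 motifs: the NF-κB site, the AP-1 site TGANTCA, the GC box GGGCGG, the CCAAT box and the TEAD site GGAATG.
Il1rap, chr16:26581455-26581704, plus strand: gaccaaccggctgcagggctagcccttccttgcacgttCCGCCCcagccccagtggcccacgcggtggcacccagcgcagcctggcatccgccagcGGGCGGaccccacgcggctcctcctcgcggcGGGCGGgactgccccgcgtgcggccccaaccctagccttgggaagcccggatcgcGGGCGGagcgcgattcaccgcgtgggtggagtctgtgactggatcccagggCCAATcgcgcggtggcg
Tollip, chr7:141902462-141902711, minus strand: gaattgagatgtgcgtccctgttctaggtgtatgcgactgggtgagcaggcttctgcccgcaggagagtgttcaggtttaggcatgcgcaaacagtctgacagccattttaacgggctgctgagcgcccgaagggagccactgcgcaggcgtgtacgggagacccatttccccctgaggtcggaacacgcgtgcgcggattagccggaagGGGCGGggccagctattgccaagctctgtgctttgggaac
Il1rl1 upstream start, chr1:40429320-40429569, plus strand: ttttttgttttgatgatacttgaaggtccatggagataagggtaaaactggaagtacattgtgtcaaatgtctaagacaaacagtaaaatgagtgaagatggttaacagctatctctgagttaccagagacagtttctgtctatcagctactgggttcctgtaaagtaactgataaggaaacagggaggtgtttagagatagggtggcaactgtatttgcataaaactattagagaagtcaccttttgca
Il1rl1 downstream start, chr1:40439379-40439628, plus strand: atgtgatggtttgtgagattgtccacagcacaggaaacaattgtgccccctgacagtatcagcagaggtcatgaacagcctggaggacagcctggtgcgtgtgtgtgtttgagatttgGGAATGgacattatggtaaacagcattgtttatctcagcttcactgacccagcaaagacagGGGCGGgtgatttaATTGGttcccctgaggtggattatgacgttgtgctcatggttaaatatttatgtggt

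The Il1rap window held 30 CG dinucleotides and the Tollip window held 17, against a median of 6 over 32851 windows of the same length. The Il1rl1 windows held 0 and 3. Il1rap had 4 GC boxes and 1 CCAAT box, and Tollip had 1 GC box. GC boxes were found in 32.7% of all windows and CCAAT boxes in 33.9%. The downstream window of Il1rl1 had 1 GC box, 1 CCAAT box and 1 TEAD match, the last found in 12.6% of all windows. All 10 genes had at least 1 window, 15 in all. An NF-κB match occurred in 1 of these 15, in front of the downstream start of Il1r1, where it shared bases with a TEAD match, and in 3.9% of all windows. An AP-1 match occurred in 1, in front of the upstream start of Il1rn, and in 6.75% of all windows. A match is a description of letters in the window and not evidence of binding.

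Il1r1 (Entrez gene 16177, chr1:40225080-40317257 on GRCm38, plus strand) encodes the signalling receptor for IL-1. It was at 5.90, 5.80 and 5.38 TPM in the IL-1β libraries and at 4.88, 5.11 and 4.36 TPM with the inhibitor. The groups were separate, with 5.11 TPM the highest value in one and 5.38 TPM the lowest in the other. The log2 fold change was −0.25 (standard error 0.0808, 95% interval −0.41 to −0.09, adjusted p = 0.0048). Leaving out inhibitor replicate 3 brought it to −0.19, past the threshold no longer (adjusted p = 0.0536).

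Il1rap (Entrez gene 16180, chr16:26581704-26730117, plus strand) encodes the accessory chain without which ligand-bound IL1R1 does not signal. It was at 4.80, 5.17 and 5.16 TPM with IL-1β and at 1.06, 1.05 and 1.51 TPM with the inhibitor. The groups were far apart, and replicate 3 was the highest of the inhibitor-treated libraries. The read counts were 208, 203 and 214 against 49, 40 and 64, which is a log2 fold change of −2.10 (standard error 0.123, 95% interval −2.35 to −1.85, adjusted p = 8.69e-22). In size this was at percentile 95.2 of all genes tested. Its exons share 552 bases with those of an antisense gene on the opposite strand. The sources used here do not say whether the counting used strand, so reads of that gene could be included.

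Il1rl1 (Entrez gene 17082, chr1:40429570-40465415, plus strand) encodes ST2, the receptor for IL-33, in a membrane form and a secreted form that the gene-level table does not separate. Its levels were 2.93, 3.37 and 2.80 TPM with IL-1β and 1.45, 1.66 and 1.55 TPM with the inhibitor. No library of one group reached the range of the other. The log2 fold change was −0.98 (standard error 0.131, 95% interval −1.24 to −0.71, adjusted p = 2.58e-09), so that it lay just inside the cutoff of 1. ST2 is known from mast cells and some lymphocytes. Of 10 mast cell and lymphoid markers 3 could be analysed. The mast cell gene Ms4a2 had 0 reads with IL-1β and 1 with the inhibitor, and the summed level of the 3 genes was 0.48 to 0.60 TPM with IL-1β and 2.99 to 3.79 TPM with the inhibitor, nearly all from Gata3. Their part in the fall of Il1rl1 was not tested.

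Il1rn (Entrez gene 16181, chr2:24336853-24351494, plus strand) encodes the IL-1 receptor antagonist and rests on few reads. It has 4 annotated coding transcripts, which the gene-level table does not separate. The counts were 10, 6 and 9 with IL-1β and 19, 22 and 14 with the inhibitor, at 0.42, 0.27 and 0.39 TPM against 0.79, 0.90 and 0.56 TPM. The groups did not overlap, and the closest libraries had 14 and 10 reads. The log2 fold change was 1.05 (standard error 0.335, 95% interval 0.38 to 1.73, adjusted p = 0.00387). DESeq2 gave 1.06 with an adjusted p of 0.0626 and did not call it. The ratio of pooled reads, scaled by the read totals, was 2.09, with an exact 95% binomial interval (Clopper-Pearson) from 1.28 to 3.50 that covers counting error only. Of 9 macrophage and myeloid markers, 7 could be analysed, and their summed level was 23.8 to 24.9 TPM with IL-1β and 128.6 to 140.2 TPM with the inhibitor. Nearly all of the second range was Cd68, a lysosomal protein, which rose from a mean of 12.36 to 129.9 TPM. Cd14, the only other of these markers with a mean of at least 1 TPM, fell from 11.41 to 4.89 TPM. Csf1r had 25 and 17 reads and Lyz2 had 9 and 3. Ptprc, the defining leukocyte gene, had 0 reads in all 6 libraries.

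The plot of TPM in each library sets the 10 genes side by side on their own scales.

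**Figure D1:**
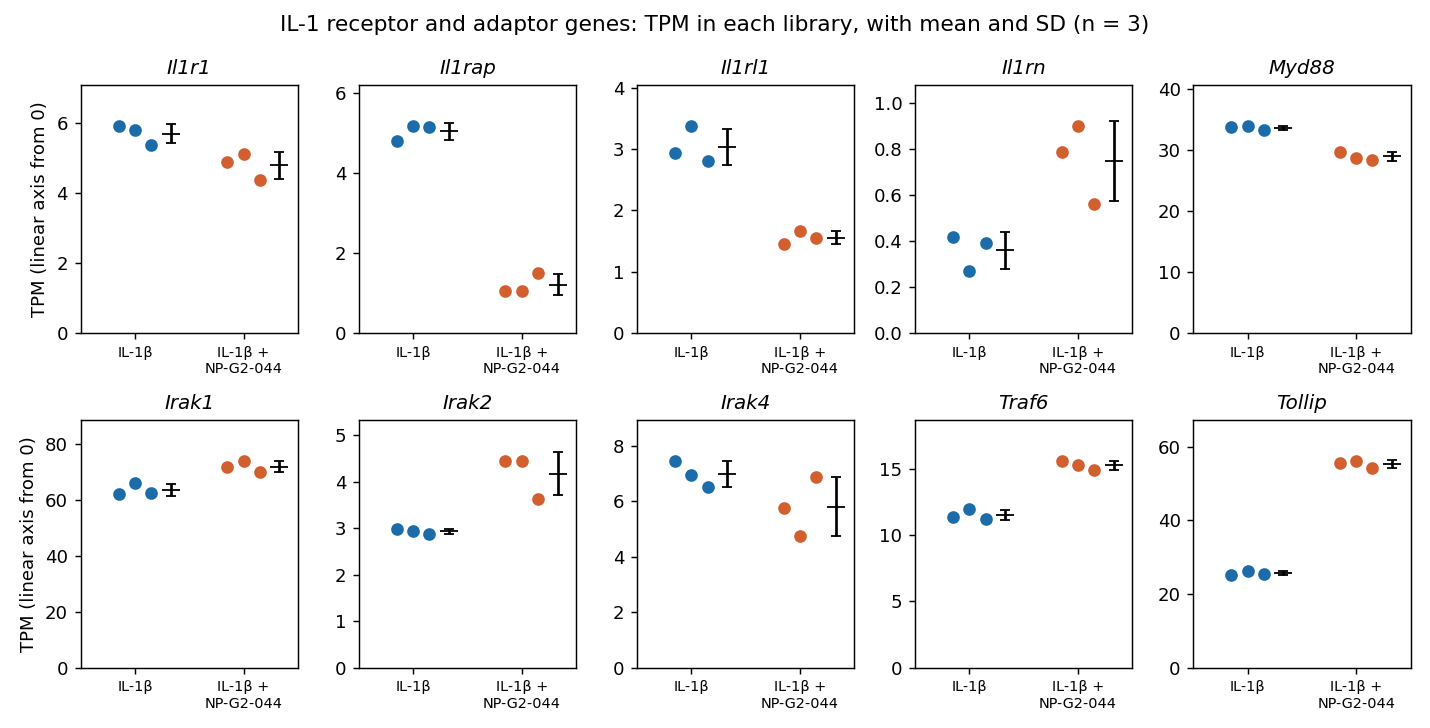
TPM of the 10 genes in each of the 6 libraries, on linear axes from 0 with a scale for each gene. Points are libraries in the order of their replicate numbers, blue for IL-1β and orange for IL-1β plus NP-G2-044, with the mean and SD (n = 3) beside them. The groups are separate for 9 genes and overlap for Irak4, where inhibitor replicate 3 at 6.88 TPM lies above IL-1β replicate 3 at 6.54 TPM.

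Myd88 (Entrez gene 17874, chr9:119335934-119341411, minus strand) encodes the adaptor that all signalling IL-1 family receptors use. Its levels of 33.66, 33.82 and 33.20 TPM with IL-1β and 29.68, 28.63 and 28.38 TPM with the inhibitor varied little within a group. The fall was small and lay outside that spread, with a log2 fold change of −0.19 (standard error 0.0539, 95% interval −0.29 to −0.08, adjusted p = 0.00167). Its exons share 290 bases with Acaa1a on the opposite strand, a gene with a log2 fold change of 0.11 (adjusted p = 0.0262).

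Irak1 (Entrez gene 16179, chrX:74013914-74023918, minus strand), which encodes the kinase that TOLLIP holds back, was the most abundant of the 10 in both groups. It was at 62.10, 66.14 and 62.51 TPM with IL-1β and at 71.62, 73.85 and 69.87 TPM with the inhibitor. The rise was the smallest in size of the 10, a log2 fold change of 0.17 (standard error 0.0326, 95% interval 0.10 to 0.23, adjusted p = 7.44e-06).

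Irak2 (Entrez gene 108960, chr6:113638467-113695026, plus strand) encodes the related kinase that sustains signalling at later times. It was at 2.98, 2.94 and 2.87 TPM with IL-1β and at 4.43, 4.44 and 3.63 TPM with the inhibitor. All inhibitor-treated libraries were above the IL-1β libraries, which were nearly equal to one another. The log2 fold change was 0.53 (standard error 0.115, 95% interval 0.30 to 0.77, adjusted p = 4.32e-05). Its exons share 196 bases with those of Gm43963 on the opposite strand, so reads of that gene could be included.

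Irak4 (Entrez gene 266632, chr15:94543643-94581815, plus strand) encodes the kinase that acts first in the complex. It was at 7.46, 6.97 and 6.54 TPM with IL-1β and at 5.78, 4.75 and 6.88 TPM with the inhibitor, and the groups overlapped. In reads they did not, at 170, 153 and 163 against 121, 119 and 152. The log2 fold change of the reads was −0.38 (standard error 0.105, 95% interval −0.59 to −0.17, adjusted p = 0.00094), while limma gave −0.24 on the log2(TPM + 1) scale (adjusted p = 0.048). The exons of Irak4 share 395 bases with Twf1 on the opposite strand, a gene with 12686 reads in all that had a log2 fold change of 0.05 and was not called (adjusted p = 0.182).

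Traf6 (Entrez gene 22034, chr2:101678429-101701669, plus strand) encodes the ubiquitin ligase on which the IRAK kinases converge. It was at 11.36, 11.95 and 11.23 TPM with IL-1β and at 15.57, 15.27 and 14.88 TPM with the inhibitor. The groups were clearly separate, with a log2 fold change of 0.45 (standard error 0.0455, 95% interval 0.35 to 0.54, adjusted p = 8.64e-13).

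Tollip (Entrez gene 54473, chr7:141874813-141918507, minus strand) encodes a ubiquitin-binding adaptor that restrains IRAK1 and also serves in endosomal sorting and selective autophagy. It was at 25.30, 26.24 and 25.38 TPM with IL-1β and at 55.67, 56.13 and 54.18 TPM with the inhibitor. The lowest inhibitor-treated library was about as far above the highest IL-1β library as that library was above 0. Its reads numbered 2851 over the IL-1β libraries and 6614 over the others. The log2 fold change was 1.14 (standard error 0.0375, 95% interval 1.07 to 1.22, adjusted p = 7.79e-33). It stayed between 1.08 and 1.15 under all 15 alternative settings.

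**Figure D2:**
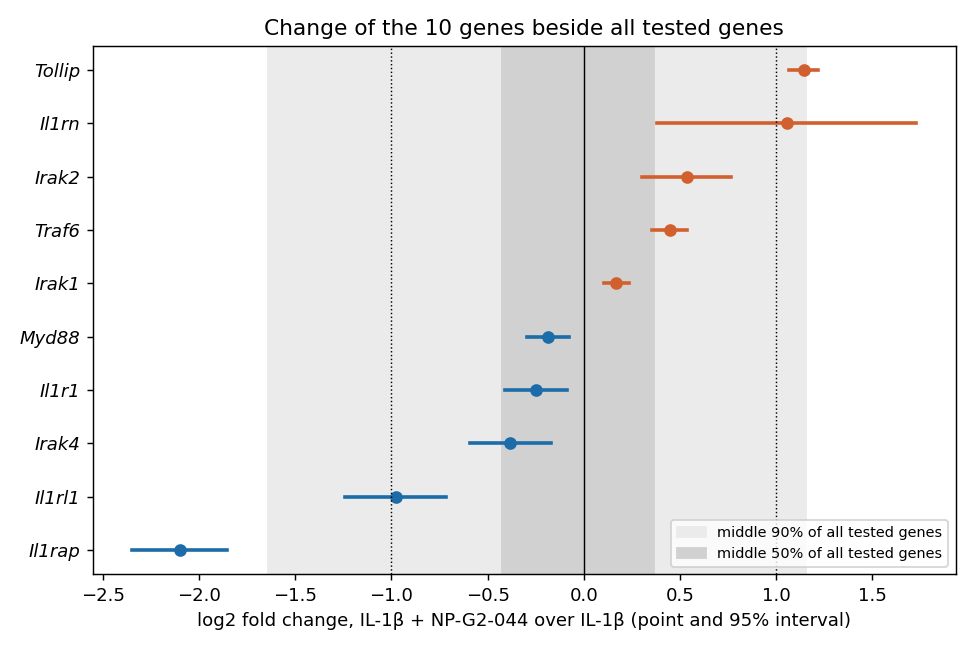
Log2 fold change of the 10 genes, with over without NP-G2-044, as points with 95% intervals, orange for higher and blue for lower. The grey bands hold the middle 50% (−0.43 to 0.36) and the middle 90% (−1.64 to 1.15) of the 11983 genes tested, dotted lines mark a log2 fold change of 1 in size, and the point of Il1rap alone lies outside the wider band.

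The order of the levels also differed between the groups. With IL-1β it ran, by mean TPM, Irak1, Myd88, Tollip, Traf6, Irak4, Il1r1, Il1rap, Il1rl1, Irak2 and Il1rn. The libraries of neighbouring genes overlapped only for Il1rl1 at 3.03 TPM and Irak2 at 2.93 TPM. With the inhibitor Tollip at 55.3 TPM stood above Myd88 at 28.9 TPM, and Il1rap at 1.21 TPM came ninth. There the libraries of Il1r1 overlapped with those of Irak4 above it and of Irak2 below it, and the libraries of Il1rl1 and Il1rap overlapped as well. Irak1, Myd88, Tollip and Traf6 were the 4 most abundant genes in both groups, and every receptor gene was under 6 TPM in every library. Irak4 and Irak2 were also below these 4. Their means were 6.99 and 2.93 TPM with IL-1β and 5.80 and 4.17 TPM with the inhibitor.

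Ratios of TPM within a library, which do not depend on how that library was scaled, were compared for 5 pairs of genes. An exact two-sided permutation test of 3 libraries against 3 cannot give a p below 0.1, and all 5 ratios reached that value (p = 0.1, 0.1 after adjustment over the 5). The ratio of Il1rap to Il1r1, the accessory chain to the binding chain, was 0.888 ± 0.0728 (SD, n = 3) with IL-1β and 0.256 ± 0.0782 (SD, n = 3) with the inhibitor. The RNA of the accessory chain was thus nearly as abundant as that of the binding chain in the first group and well below it in the second. Protein was not measured, and the gene-level values add together the 4 annotated coding transcripts of Il1rap. The ratio of antagonist to receptor, Il1rn to Il1r1, was 0.0634 ± 0.0146 and 0.156 ± 0.0245 (SD, n = 3 each). Traf6 to Tollip went from 0.449 ± 0.00647 to 0.2755 ± 0.00388 (SD, n = 3 each), so that Tollip rose by more than Traf6. Irak2 to Irak1 went from 0.0461 ± 0.00178 to 0.058 ± 0.00529, and Irak4 to Irak1 from 0.11 ± 0.00874 to 0.0812 ± 0.0171 (SD, n = 3 each). For each of the 5 ratios the groups did not overlap.

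**Figure D3:**
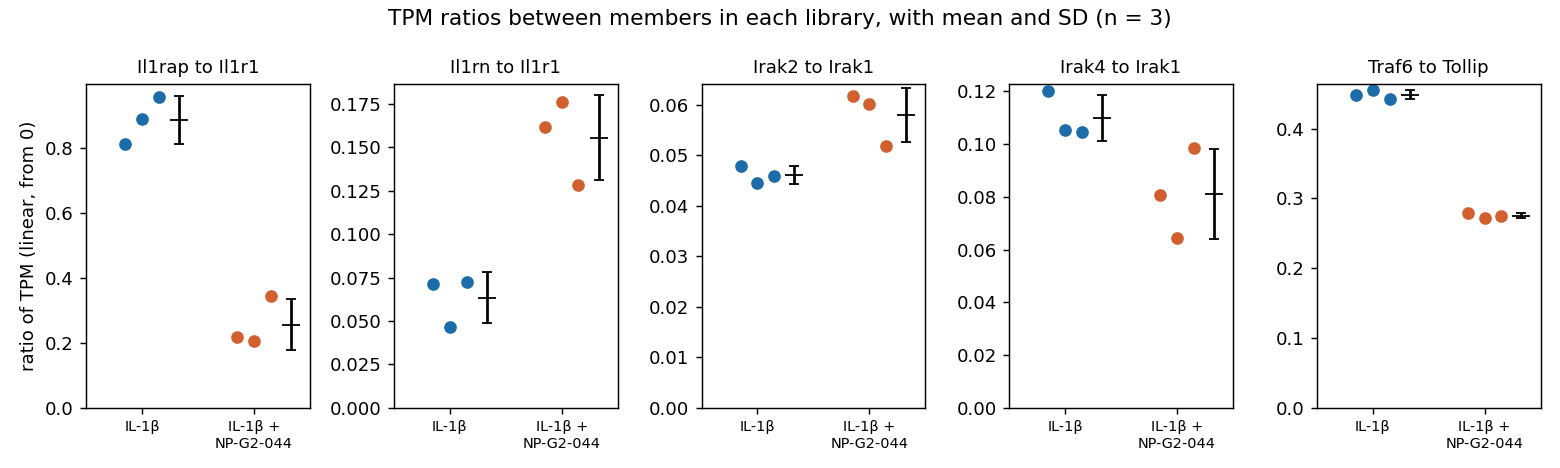
TPM ratios between pairs of the genes in each library, on linear axes from 0, blue for IL-1β and orange for IL-1β plus NP-G2-044, with the mean and SD (n = 3). The ratio of Il1rap to Il1r1 lies between 0.814 and 0.959 with IL-1β and between 0.206 and 0.346 with the inhibitor.

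For genes with at least 100 reads in every library, the reads and the FPKM (fragments corrected for transcript length and depth) of a library together give the transcript length that the authors' quantification assumed, which moves where the estimated mix of transcripts moves. This could be computed for 6 of the 10 genes. For Tollip the implied length was 3496 ± 2.8 bases with IL-1β and 3490 ± 2.5 with the inhibitor (SD, n = 3 each), and for Traf6 5812 ± 18.4 and 5835 ± 9.7 bases, so the rise of these genes in reads came with almost the same length. Myd88 was at 1664 ± 2.8 and 1659 ± 1.7 bases and Irak1 at 3216 ± 70.4 and 3122 ± 8.3 bases (SD, n = 3 each). For Il1r1 it was 4612 ± 1.8 and 4511 ± 33.5 bases (p = 0.1, exact permutation test, 0.15 after adjustment over the 6 genes). Irak4 was the most variable, with 2123, 2107 and 2338 bases against 1861, 2178 and 1917 (p = 0.3, exact permutation test, 0.3 after adjustment). The spread of its length between replicates was at percentile 99.6 of 9486 genes. The overlap of its TPM between groups, with no overlap in reads, came with this spread.

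Among all genes tested, those whose pattern over the 6 libraries was most like that of Il1rap, the gene with the largest change, were Radx, Adamts5 and Gli1. Likeness was the root-mean-square difference of log2 CPM (counts corrected for depth, with edgeR's prior count of 2) after centring each gene, which was 0.0568, 0.0992 and 0.107. The prior count draws genes with few reads towards no change, so that Gli1, with 51 reads against 8 and a fitted log2 fold change of −2.69, comes out close to Il1rap at −2.10. Adamts5, an aggrecan-cleaving protease, was at 3.22, 3.63 and 3.72 TPM with IL-1β and at 0.75, 0.72 and 0.97 TPM with the inhibitor. Radx was at 3.46, 3.54 and 3.52 TPM against 0.72, 0.63 and 1.05 TPM.

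The other genes of the pathway were taken from 6 lists. Of the 19 genes listed as IL-1 family ligands, decoys and other receptors, 12 could be analysed and 4 had enough reads to be tested. 3 of the 4 fell and none rose, where 80.0% of all genes tested were called and 39.8% were lower, with a median log2 fold change of −1.03 against 0.0018. Il18rap, the accessory chain of the IL-18 receptor, went from 1.60, 1.57 and 1.39 TPM to 0.56, 0.57 and 0.57 TPM, a log2 fold change of −1.41 (adjusted p = 3.49e-10, standard error 0.175). Il1a fell from 38 reads to 7 over the 3 libraries of a group, with a log2 fold change of −2.45 (adjusted p = 2.85e-05). Il1b, the gene of the added cytokine, had 1 read in all. Il1r2, the decoy receptor, had 7 reads against 11 and was not tested. Il1a, Il1b and Il1r2 were chosen after their values were seen.

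Most Toll-like receptors, though not all, use the same MYD88 and IRAK proteins. Of 16 genes of Toll-like receptors and their adaptors 9 were tested, 6 fell and none rose. The share called was 66.7%, below the 80.0% of all genes, of which 39.8% were lower, and the median was −0.33. Tlr2, a receptor for bacterial lipoproteins, was at 65.92, 70.70 and 64.51 TPM with IL-1β and at 17.36, 18.41 and 17.38 TPM with the inhibitor, a log2 fold change of −1.88 (adjusted p = 3.2e-39, standard error 0.045). Cd14, a co-receptor for lipopolysaccharide, had a log2 fold change of −1.19. Tlr4 and the adaptor gene Ticam1 were chosen after their values were seen. Tlr4 had a log2 fold change of −0.78, while Ticam1 was at 0.08 and was not called (adjusted p = 0.207). Tlr7 and Ly96 were not called either.

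Of 25 kinases, ubiquitin enzymes and other transducers downstream of TRAF6, all tested, 12 rose, 8 fell and 5 did not pass. This is the share of all genes, 80.0%, of which 40.2% were higher and 39.8% lower, and the median was 0.07. Map3k7, which encodes TAK1 and was chosen after its values were seen, had a log2 fold change of 0.06 (95% interval −0.02 to 0.14, adjusted p = 0.136). Sqstm1, which encodes the scaffold and autophagy receptor p62, went from 530.5, 557.5 and 532.2 TPM to 2108, 2141 and 2052 TPM, a log2 fold change of 1.99. Map3k8, an activator of the ERK pathway, and Map2k6, an activator of p38, had log2 fold changes of −3.44 and −2.37. Map3k8 rests on 220 reads against 21.

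Of 18 genes listed as brakes on IRAK and TRAF6 signalling 17 were tested, 6 rose and 10 fell, 94.1% called against 80.0% of all genes, with a median of −0.40. The 6 include Tifa, chosen after its values were seen, which had a log2 fold change of 0.77. It encodes an adaptor known to activate TRAF6 rather than restrain it. The other listed genes were not sorted by role, so the counts and the median are not those of brakes alone. Tnip2, an inhibitor of NF-κB activation, rose by 1.18 on the log2 scale, from 9.62, 9.06 and 9.32 TPM to 20.59, 20.56 and 21.05 TPM. Zc3h12a, which encodes a ribonuclease that degrades inflammatory mRNAs, had a log2 fold change of −1.76, and Socs3, an inhibitor of cytokine receptor signalling, one of −2.23. Irak3, a kinase-dead member of the family, had 0 of 103135100 reads, which allows up to 0.0291 CPM. It was chosen after its values were seen.

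Among 12 other TRAF and TRAF-binding genes 11 were tested, 2 rose, 5 fell and 4 did not pass, 63.6% called against 80.0% of all genes, with a median of −0.13. Traf1, itself a known NF-κB target, went from 8.07, 7.37 and 7.05 TPM to 2.41, 2.49 and 2.72 TPM, a log2 fold change of −1.63 (adjusted p = 4.27e-18, standard error 0.118). Traf4, chosen after its values were seen, was at 0.62 on the same scale.

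Of 25 genes known to respond to IL-1, 19 were tested, 16 fell, 2 rose and 1 did not pass, 94.7% called against 80.0% of all genes, with a median log2 fold change of −1.53 against 0.0018 over all genes. 13 fell and 1 rose past the cutoff of 1, where 10.1% and 6.48% of all genes did. The 5 largest falls among those at 1 TPM or more were of C3, a complement component, with −4.35, Vcam1, an adhesion molecule, with −3.25, Nos2, the inducible nitric oxide synthase, with −3.14, Saa3, an acute-phase protein, with −3.08, and Ccl7, a chemokine, with −2.83. Nos2 was at 113.6, 111.6 and 109.1 TPM with IL-1β and at 13.69, 11.12 and 12.24 TPM with the inhibitor. Mmp3, a matrix-degrading enzyme whose mean over the 6 libraries was below 1 TPM, had 68 reads against 2. The gene that rose past the cutoff was the cytokine gene Lif, which had 81 and 205 reads and rose by 1.26 on the log2 scale, and the other that rose was Ptgs2 with 0.39. The values of Mmp3, Lif and Ptgs2 had been seen before they were named. The same libraries gave all of these values, and a link between the receptor genes and the response genes was not tested.

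**Figure D4:**
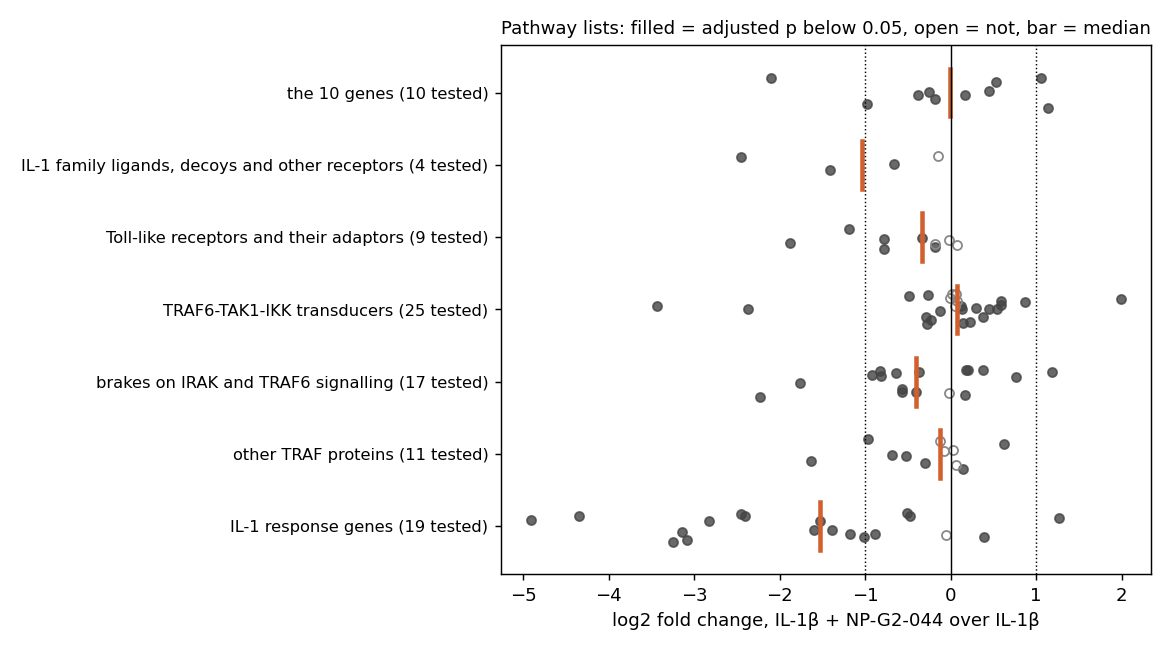
Log2 fold change, with over without NP-G2-044, of every tested gene of the 10 genes and of the 6 lists, filled for an adjusted p below 0.05 and open for others, with the median as an orange bar and dotted lines at 1 in size. The 19 tested IL-1 response genes have a median of −1.53, and the 25 transducers one of 0.07.

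Fscn1, the gene of the inhibited protein, went from 616.2 ± 9.465 TPM to 252.4 ± 2.465 TPM with the inhibitor (SD, n = 3 each), which does not check the treatment since the compound acts on the protein. The IL-1β libraries held between 16615824 and 16878164 reads, and the inhibitor-treated ones between 17529844 and 17735860. Of 13 chondrocyte markers 9 could be analysed, with a summed level of 21.9 to 22.7 TPM with IL-1β and 17.1 to 17.6 TPM with the inhibitor. The sum holds opposite changes, since Sox5 fell from a mean of 10.28 to 2.27 TPM and Sox9 rose from 6.44 to 11.4 TPM. Only these and Col11a2 reached a mean of 1 TPM, Col2a1 had 32 and 6 reads, and Matn1 had none. The 10 fibroblast and mesenchymal markers summed to 8017 to 8254 TPM and 2514 to 2628 TPM, with 8 lower and Pdgfra higher, from 2.36 to 8.69 TPM, and the 5 endothelial markers that could be analysed stayed under 1 TPM. These levels moved with the groups, and their part in the changes of the 10 genes was not tested.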

How the data were processed

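RNA was sequenced from 6 ATDC5 libraries, 3 per group, with groups and replicate numbers from the sample titles. The authors deposited 1 table with an estimated read count, TPM and FPKM for each gene and library. The expected counts, as deposited by the authors, are estimated counts of reads per gene that were not normalized, and 10.17% to 11.06% of them per library are not whole. TPM and FPKM were calculated by the authors for each library. Columns of group means by the authors were not used. The submitters' processing notes name cutadapt, HISAT2 2.0, StringTie and the build mm10, with no role or order, and the methods state that BGI quantified the libraries. Whether counting used strand is not stated there.

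Counts were rounded, filtered with filterByExpr (minimum count 10), normalized with TMM (factors 0.998 to 1.002) and tested in edgeR 4.0.16 (glmQLFit and glmQLFTest, R 4.3.3), 3 libraries against 3 without covariates, with Benjamini-Hochberg adjustment over 11983 genes. The paper's cutoffs of 0.05 and a log2 fold change of 1 were used. Standard errors were obtained by dividing the absolute log2 change by the root of the F statistic. Levels are compared between genes in TPM only. Ratios and implied lengths were tested with exact permutation tests (scipy 1.17.1). Gene positions are from GENCODE vM21 and upstream sequences from RefSeq, both on GRCm38, the build of mm10.

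The 10 genes, the lists and the tests were chosen with earlier results of these data known. Named from the lists were at most 5 genes each, the largest called changes past a log2 fold change of 1 with a mean of at least 1 TPM, and 3 genes by likeness. The steps were run on simulated data with 200 changed genes and the same dispersion for every gene. That setting differs from these data, where 80.0% of genes tested were called, so it checks only the code. Between libraries of a group, squared differences were 1.54 to 2.39 times sampling noise. The common biological coefficient of variation, an estimate of variation between replicates beyond counting error, was 2.33%. Each library was counted as 1 replicate, but a spread this small cannot show that the cultures were independent. The methods call them biological replicates, and the labels do not name separate cultures. The p-values and the share of genes called rest on the spread between these samples alone, which may be smaller than that between separate cultures. The alternatives were DESeq2 1.42.0, its size factors or library size alone in edgeR, voom and log2(TPM + 1) or log2(TPM + 0.1) in limma 3.58.1, no filter, at least 10 CPM in 3 libraries, the replicate number as a block, and each library left out in turn.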

Additional observations from a re-analysis of the deposited data

How the results depend on the processing

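All 10 genes kept their direction in all 146 refits that could test them, and 144 of these stayed on the same side of the threshold. The exceptions were Il1r1 when inhibitor replicate 3 was left out (−0.19, adjusted p = 0.0536, with −0.30 to −0.19 over the libraries left out) and Il1rn with DESeq2 (1.06, adjusted p = 0.0626). The filter of at least 10 CPM left out Il1rl1, Il1rn, Irak2 and Irak4, so that 3 genes were called higher and 3 lower. Past both cutoffs 1 gene was higher, in place of 2, with DESeq2, with either limma fit on TPM and with that filter. With libraries left out, 1 to 2 genes were higher and 1 to 2 lower past both cutoffs. The second lower gene was Il1rl1, at −1.04 without IL-1β replicate 3 and −1.04 without inhibitor replicate 2, and Il1rn was at 0.87 without IL-1β replicate 2 and 0.91 without inhibitor replicate 2. Over all genes, 484 were higher and 680 lower past both cutoffs with at least 10 CPM, where fewer genes were tested, and 514 and 802 with log2(TPM + 1), against 776 and 1211. The change in implied length of Tollip, −0.0027 on the log2 scale, was 0.0021 when computed from TPM. Same-numbered libraries did not deviate together (correlations of −0.093 to 0.026), so the numbers were not taken as pairs. With the replicate number as a block, 5 of the 10 genes were higher and 5 lower, and 4779 and 4719 over all genes. Reads limit Il1rn most, with 25 and 55 over the libraries of a group.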
